A study of Mus musculus with 10 samples.

Results

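The genes examined here are Fgf15, Slc10a2, Fabp6, Nr1h4, Nr0b2, Slc51a and Slc51b, 7 of the 24062 gene symbols in the count files. They were taken by symbol from all 10 libraries as the intestinal genes of bile acid uptake, bile acid export and signalling through the bile acid receptor FXR. Whole jejunum was sequenced from C57BL/6 pups at postnatal day 5. The 5 WT libraries came from wild-type pups. The 5 KSR23 libraries came from pups carrying an IL-23 cassette (R23) that a cre recombinase under the human K14 promoter activates. The K14 promoter was used to direct expression to keratinocytes. No other allele or agent is named in the labels. The comparison asked how these genes are expressed in the intestine of pups with raised IL-23.

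Bile acids made in the liver enter the gut lumen, where they emulsify milk fat, and most are taken back up at the end of the small intestine. In the enterocyte, Slc10a2 (the apical sodium-dependent bile acid transporter) takes them up from the lumen, Fabp6 carries them through the cytosol, and the paired subunits Slc51a and Slc51b (organic solute transporter alpha and beta) release them at the base of the cell. Bile acids also bind FXR, the nuclear receptor encoded by Nr1h4, which turns on Nr0b2 (the corepressor SHP), Fgf15 (a hormone that acts on the liver to lower bile acid synthesis), Fabp6 and both Slc51 genes. In adult mice uptake through Slc10a2 and the expression of Fabp6 and Fgf15 belong mostly to the ileum.

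Of the 7 genes, Nr0b2 changed most clearly. It fell to 10.5% of its WT level in KSR23 jejunum, with no overlap between the groups. Nr1h4, Slc51a and Slc51b had similar means in both groups. Slc10a2 was higher in KSR23 at a very low level, and that call was lost under the quasi-likelihood test. Fgf15 and Fabp6 did not pass the test.

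Library totals ran from 25.5 to 32.0 M counts in WT and from 31.2 to 60.9 M in KSR23 (M stands for 1e6). The p40 subunit gene Il12b had 0 to 5 counts in WT and 9 to 40 in KSR23 (log2 fold change 2.32, SE 0.66, likelihood ratio adjusted p = 0.00364), and the p19 subunit gene Il23a had 1 to 14 and 8 to 34 counts. Replicates 4 and 5 stood apart in both groups. Over 12889 genes with a mean of at least 1 CPM (counts per 1e6 counts of a library, scaled by TMM factors), they were the highest or lowest of their group at 11.5% to 20.6% of genes, where 40% would be usual for exchangeable libraries, and replicates 1 to 3 at 44.9% to 71.4%. Results from replicates 1 to 3 alone are therefore given beside those from all libraries. The study calls the libraries biological replicates, but the labels do not tie each to a separate pup, and the p-values measure the spread between these libraries. The enterocyte markers Vil1, Fabp2, Apob, Alpi and Cdh17 were abundant in every library (summed level 11182 to 17880 CPM in WT, 7882 to 15703 CPM in KSR23).

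Promoter sequence was available for 6 of the 7 genes in RefSeq (build GRCm38.p6), and 250 bases upstream of the RefSeq start were searched on both strands. That start can differ from the GENCODE gene bounds printed for each gene. The Nr1h4 window (chr10:89506659-89506908) lay inside the GENCODE gene, and those of Slc10a2 and Slc51b overlapped its first bases. The Nr0b2 promoter is shown because this gene carries the main difference. It lies at chr4:133553126-133553375 on the plus strand and overlaps no annotated exon. A match to TTCNNNGAA, the letters of a STAT binding motif, stands in capitals and begins 91 bases before the start.

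Nr0b2 promoter: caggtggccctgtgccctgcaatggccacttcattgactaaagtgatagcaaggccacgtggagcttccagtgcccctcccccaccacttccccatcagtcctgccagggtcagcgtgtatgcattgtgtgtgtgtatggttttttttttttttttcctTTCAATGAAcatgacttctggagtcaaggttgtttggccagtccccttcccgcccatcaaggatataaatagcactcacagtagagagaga

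The same letters occur in 7.02% of 32841 promoter windows of this length. Among the 6 genes searched they also occur in the window of Slc51b, a gene whose level was similar in both groups, at chr9:65422820-65422848 on the minus strand, 65 bases before the RefSeq start and inside an annotated exon. The match is again in capitals.

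Slc51b stretch: acaactgcatTTCTCGGAAgagttcctgt

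The inverted repeat bound by FXR (AGGTCA, any 1 base, then the reverse complement of AGGTCA) had no exact match in the 6 windows, and 2 of the 32841 windows held one (0.00609%). With up to 2 mismatches it was found in 0.959% of windows and, among the 6 genes searched, only upstream of Fabp6, in 2 places. They lie at chr11:43601684-43601712 and chr11:43601764-43601792 on the minus strand, beginning 142 and 222 bases before the start, each with 2 mismatches. The stretches are shown with the match in capitals because Fabp6 is an FXR target that was close to absent from these libraries.

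Fabp6 near stretch: tttccttaAGGTGAATAACCTtggggctc
Fabp6 far stretch: gagcagagAGGTGAATGACCAcactctgt

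A match is a description of letters, and no factor binding was measured. The motif AGGTCA, a single arm of that repeat, occurred in the windows of Nr1h4, Slc51a and Slc51b and in 14% of all windows. Exact matches to CAAGGTCA (LRH-1 motif, 1.33% of windows) and CAAAGTCCA (HNF4 motif, 0.384%) were not found in the 6 windows. Variants of these letters were not searched, so sites that differ from them are not covered. Those to GTTAAT (HNF1, 6.43%) occurred in the windows of Slc10a2 and Nr1h4, that to AGATAA (the motif of GATA factors, 9.99%) in that of Nr1h4, and that to TGACTCA (AP-1, 4.46%) in that of Slc51b.

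Levels were first compared between genes per kilobase of annotated exon, in CPM per kb. In WT jejunum the order ran Slc51b (202 ± 37.8), Slc51a (173 ± 42.8), Nr1h4 (90.1 ± 18.2), Nr0b2 (44.0 ± 8.99), Fgf15 (1.54 ± 0.866), Fabp6 (0.110 ± 0.0751) and Slc10a2 (0.0184 ± 0.0282; SD, n = 5 each). In KSR23 the order was the same, at 210 ± 87.6, 181 ± 55.0, 102 ± 27.3, 4.62 ± 1.07, 0.436 ± 0.639, 0.302 ± 0.222 and 0.135 ± 0.120 (SD, n = 5 each). In both groups the means of Slc51b and Slc51a lay within 1 SD of each other, and in KSR23 those of Fgf15 and Fabp6 did too. The jejunum expressed the basal exporter and the receptor. In WT, the mean levels of the uptake gene Slc10a2 and the carrier gene Fabp6 lay near the floor of detection (3 counts, or 0.0937 to 0.118 CPM in WT before TMM scaling).

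The 7 genes were then tested within a fit of all 17632 genes that had 5 or more counts in at least 1 library. All 7 passed this filter, Fabp6 only through KSR23 libraries, which held up to 10 counts of it against at most 3 in WT. The likelihood ratio test of edgeR called 2 of the 7 at an adjusted p under 0.05 (Nr0b2 lower, Slc10a2 higher), and 18.5% of all genes were called. The quasi-likelihood F test called Nr0b2 alone, against 15.4% of all genes (6.91% lower, 8.47% higher). The CPM ranges of the groups were apart for Nr0b2 alone, against 14.4% of all genes (6.99% lower, 7.41% higher), and in replicates 1 to 3 again for Nr0b2 alone, against 19.3%. The median log2 fold change of the 7 genes was 0.07, and that of all genes tested was 0.03.

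**Figure D1:**
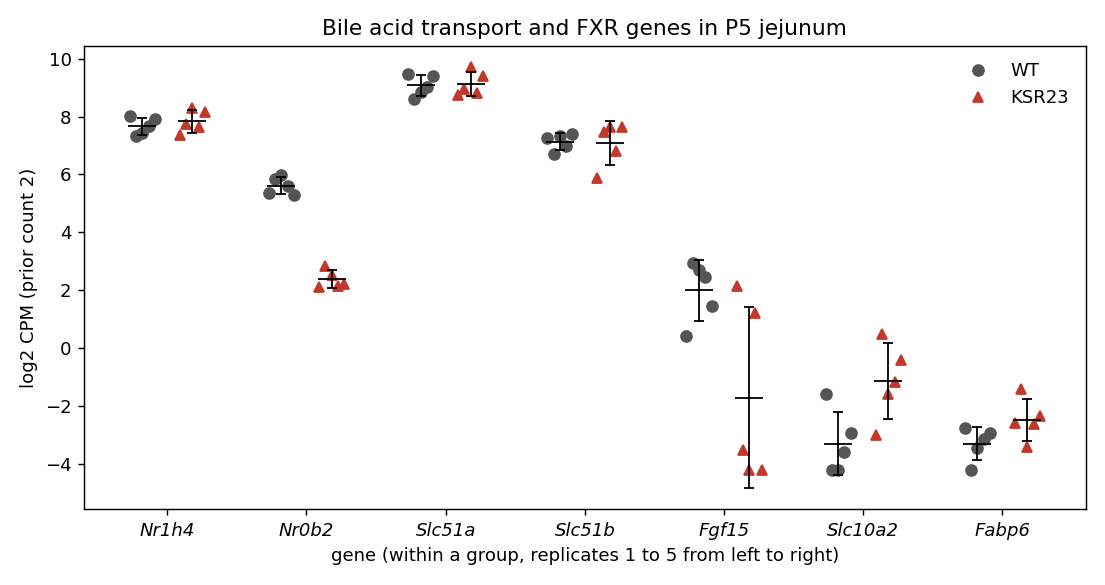
Log2 CPM (prior count of 2) of the 7 genes in each library, with WT as grey circles and KSR23 as red triangles, replicates 1 to 5 from left to right within a group, and the mean ± SD (n = 5) in black. The groups are apart for Nr0b2 and overlap for the other 6 genes, and Fgf15 is spread widely in KSR23.

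The receptor gene Nr1h4 (ENSMUSG00000047638, mm10 chromosome 10, 89454234 to 89533585, minus strand, 11 merged exons) did not pass the test. In WT replicates 1 to 5 it had 259, 161, 174, 203 and 240 CPM. In KSR23 replicates 1 to 5 it had 164, 212, 314, 199 and 286 CPM. The ranges overlapped over most of their length, and KSR23 replicate 3 was the highest of the 10. Mean levels were 207 ± 41.9 CPM (WT) and 235 ± 62.8 CPM (KSR23; SD, n = 5). On the log2 scale the difference was 0.18 (SE 0.27, edgeR likelihood ratio adjusted p = 0.715). The 95% interval of the ratio ran from 0.782 to 1.64.

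Nr0b2 (ENSMUSG00000037583, chromosome 4, 133553376 to 133556536, plus strand, 2 exons) encodes SHP, an orphan nuclear receptor without a DNA-binding domain that represses other nuclear receptors. In WT replicates 1 to 5 it had 41.4, 57.4, 62.7, 48.7 and 38.9 CPM, from 1037 to 1708 counts. In KSR23 replicates 1 to 5 it had 4.28, 7.13, 5.72, 4.39 and 4.60 CPM, from 144 to 301 counts. Each KSR23 library lay below each WT library, and the spread within each group was small. Such separation with KSR23 lower held for 6.99% of all genes, and 8.76% of all genes passed the likelihood ratio test as lower.

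The log2 fold change of Nr0b2 was -3.26 (SE 0.29), a 9.55-fold lower level. The edgeR likelihood ratio adjusted p was 1.96e-22 and the quasi-likelihood adjusted p was 1.21e-05. Restricted to replicates 1 to 3, Nr0b2 was at -3.20 and was again called by both edgeR tests, at adjusted p = 6.81e-06 (likelihood ratio) and 0.0197 (quasi-likelihood). It was the 1 gene of the 7 called there, against 3.36% of all genes for the former test and 0.812% for the latter. Among the 1545 genes called lower in all libraries, 199 (12.9%) fell further than Nr0b2. None of its 75-base stretches occurred in another annotated gene, and no annotated gene overlapped it.

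Nr0b2 is also strongly expressed by hepatocytes, so liver genes were examined beside it. Of the hepatocyte markers Alb, Serpina1a, Fgb, Apoh and Cyp2e1, 3 were called lower and 1 higher by the likelihood ratio test (18.5% of all genes were called), and 1 lower (Serpina1a) and 1 higher (Fgb) by the quasi-likelihood test. Their summed level was 167 to 310 CPM in WT and 2.26 to 29.7 CPM in KSR23. In WT nearly all of that sum was Serpina1a (250 ± 54.6 CPM in WT and 8.03 ± 4.51 CPM in KSR23, SD, n = 5). Alb, the defining marker, was at 0.424 to 3.27 CPM in WT and at 0 to 1.07 CPM in KSR23, and Fgb, which made up 15.2 of the 29.7 CPM in KSR23 replicate 1, was higher in KSR23 (log2 fold change 3.47). In whole tissue, fewer cells that express a gene and less RNA of it per cell cannot be told apart.

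The exporter subunits Slc51a and Slc51b form a heterodimer, and both are needed at the membrane. Slc51a (ENSMUSG00000035699, chromosome 16, 32474504 to 32487879, minus strand) had 703, 391, 467, 521 and 685 CPM in WT replicates 1 to 5 and 432, 497, 841, 448 and 678 CPM in KSR23 replicates 1 to 5. Slc51b (ENSMUSG00000053862, chromosome 9, 65412714 to 65422955, minus strand) had 154, 105, 160, 126 and 170 CPM in WT and 58.4, 177, 199.5, 111 and 199 CPM in KSR23. The groups overlapped for both subunits, and KSR23 replicate 1 was the lowest of the 10 for Slc51b.

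Neither subunit passed the test. The log2 fold change was 0.07 for Slc51a (SE 0.29, edgeR likelihood ratio adjusted p = 0.911) and 0.06 for Slc51b (SE 0.34, adjusted p = 0.935), and the sign of both turned when library totals were used without TMM factors. The 95% intervals of the ratio, 0.707 to 1.55 for Slc51a and 0.652 to 1.66 for Slc51b, do not reach the change seen in Nr0b2. Slc51a overlaps Pcyt1a and Slc51b overlaps Rasl12, each on the opposite strand, and 15.4% and 2.83% of their 75-base stretches occur in another gene on either strand.

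**Figure D2:**
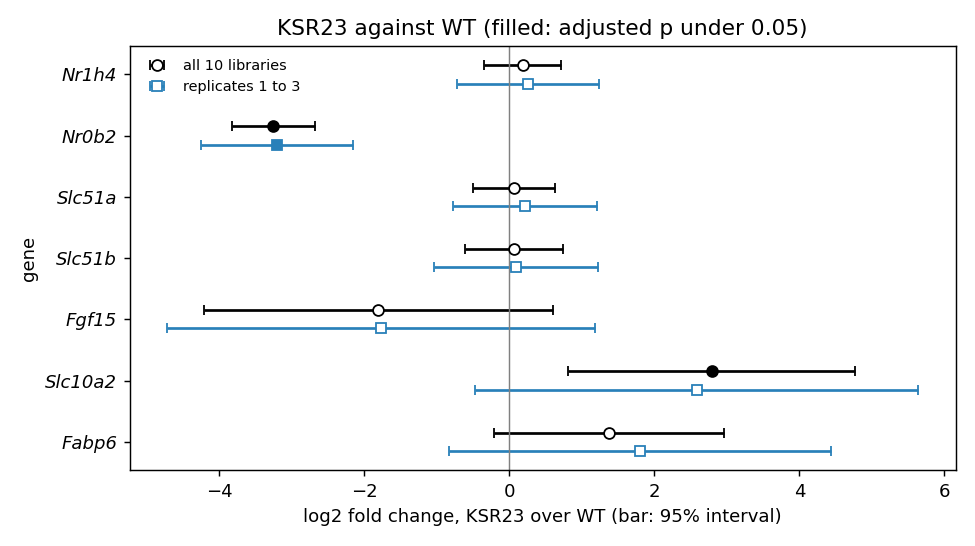
Log2 fold change of KSR23 over WT with its 95% interval for each of the 7 genes, from all 10 libraries (black circles) and from replicates 1 to 3 alone (blue squares), filled where the likelihood ratio adjusted p is under 0.05. Nr0b2 lies at -3.26 and -3.20 with narrow intervals, Nr1h4, Slc51a and Slc51b lie near 0, and Slc10a2 is filled in all libraries but not in replicates 1 to 3.

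Fgf15 (ENSMUSG00000031073, chromosome 7, 144896531 to 144900953, plus strand) encodes the enterocyte hormone that closes the loop between the intestine and the liver. The WT replicates 1 to 5 held 41, 217, 174, 190 and 72 counts of it (1.27, 7.67, 6.38, 5.47 and 2.70 CPM). In KSR23 it had 306 counts in replicate 1 and 129 in replicate 4 (4.35 and 2.28 CPM), 1 count in replicate 2, and 0 counts in replicates 3 and 5. Transcripts were present in every WT library, while the KSR23 libraries fell into 2 with a level inside the WT range and 3 at or near 0. This split was not particular to Fgf15. Cdx2 was at 98.6 and 54.4 CPM in KSR23 replicates 1 and 4 and at 6.44 to 8.61 CPM in the others. Jun was at 105 and 46.1 CPM, against 4.97 to 6.87 CPM. The distal marker Nts did not split this way (129 and 99.3 CPM, against 35.8 to 133 CPM).

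The log2 fold change of Fgf15 was -1.81 (SE 1.23, edgeR likelihood ratio adjusted p = 0.349, quasi-likelihood adjusted p = 0.339), so it did not pass the test. Without KSR23 replicate 1 it was -2.92 (adjusted p = 0.123), and in replicates 1 to 3 alone -1.77 (adjusted p = 0.723). The annotation places the antisense transcripts Gm26793 and Gm39119 over Fgf15, and 19.2% of its 75-base stretches occur in another gene on either strand. Libraries were made from fragmented double-stranded cDNA, with no step named that keeps the strand. Reads of an antisense transcript could thus not be told from those of Fgf15 by strand, and no source used here gives the counter's strand setting.

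Slc10a2 (ENSMUSG00000023073, chromosome 8, 5083219 to 5105351, minus strand) was read 9, 0, 0, 1 and 2 times in WT replicates 1 to 5, and 5, 42, 7, 22 and 25 times in KSR23 replicates 1 to 5. In CPM the groups overlapped, because KSR23 replicate 1 (0.0711 CPM) and replicate 3 (0.278 CPM) lay at or below WT replicate 1 (0.279 CPM). The summed counts, 12 and 101, gave a ratio of 5.75 per scaled total, with an exact binomial 95% interval of 3.15 to 11.5 that covers counting error only. The mean level was 0.0765 ± 0.117 CPM in WT and 0.560 ± 0.50 CPM in KSR23 (SD, n = 5).

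The log2 fold change of Slc10a2 was 2.79 (SE 1.01) and its edgeR likelihood ratio adjusted p was 0.0384, where 9.73% of all genes were called higher. The quasi-likelihood adjusted p was 0.0923, and replicates 1 to 3 gave 2.58 (likelihood ratio adjusted p = 0.519). The call was kept without WT replicate 1 (4.26), KSR23 replicate 1 (3.12) or KSR23 replicate 3 (2.96), and lost without each of the other libraries, down to 2.22 without KSR23 replicate 2 (adjusted p = 0.136).

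Fabp6 (ENSMUSG00000020405, chromosome 11, 43596049 to 43601540, minus strand) was read 3, 0, 1, 2 and 2 times in WT replicates 1 to 5, and 8, 10, 1, 6 and 5 times in KSR23. No WT library was above the floor of 3 counts, and the groups overlapped through KSR23 replicate 3. The summed counts, 8 in WT and 30 in KSR23, gave a ratio of 2.56 per scaled total, with an interval of the same kind of 1.15 to 6.47. Since Fabp6 passed the filter through KSR23 alone, its direction was in part set by that filter, and the interval does not allow for this. Over libraries the test was not passed (log2 fold change 1.38, SE 0.81, edgeR likelihood ratio adjusted p = 0.214).

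Since Slc10a2, Fabp6 and Fgf15 are ileal genes in the adult, other markers of intestinal region were examined beside them. Of 7 proximal markers, the likelihood ratio test called 3, each of them lower in KSR23, where 8.76% of all genes were called lower. These were Cybrd1, a duodenal iron reductase (log2 fold change -1.71, SE 0.28, edgeR likelihood ratio adjusted p = 1.75e-07), Gip, a hormone of the upper intestine (-0.99), and Fabp1, a fatty acid carrier (-1.01; quasi-likelihood adjusted p = 0.0822). Gata4, which holds the ileal programme off in the proximal intestine, stood at 17.0 ± 4.92 CPM (WT) and 21.5 ± 3.29 CPM (KSR23; SD, n = 5, edgeR likelihood ratio adjusted p = 0.458).

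Of 10 distal markers other than the 7 genes, 3 were called by either test, 2 higher and 1 lower, where the likelihood ratio test called 18.5% of all genes. Clec2h was higher (log2 fold change 1.42, edgeR likelihood ratio adjusted p = 0.000354), and Cubn, the receptor cubilin, was lower (-2.40, adjusted p = 0.000112). The summed level of the distal list was 934 to 1073 CPM in WT and 446 to 1536 CPM in KSR23, and that of the proximal list 9318 to 18766 CPM and 5319 to 12029 CPM. In KSR23, replicate 2 had the lowest distal sum and the highest Slc10a2 and Fabp6 levels. Of the regional markers, only Cybrd1 was called by the likelihood ratio test in replicates 1 to 3, and none by the quasi-likelihood test. These tests called 3.36% and 0.812% of all genes there. The part of tissue region in the Slc10a2 and Fgf15 values was not tested.

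The levels within a group did not vary independently. Ranked by CPM, the 5 WT libraries ran in the order of replicates 1, 5, 4, 3 and 2 for Nr1h4 and for Slc51a alike, and the 5 KSR23 libraries in the order 3, 5, 2, 4 and 1 for both. Slc51b followed the same order in KSR23 but not in WT. Fgf15 ran in the reverse order in WT, and in KSR23 its 2 higher libraries, replicates 1 and 4, were those with the lowest Nr1h4. Nr0b2 followed neither order.

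Such shared orders were not rare. Of 12888 other genes with a mean of at least 1 CPM, 277 (2.15%) had the order of Nr1h4 in both groups, 746 (5.79%) in WT and 1805 (14%) in KSR23, and 1111 (8.62%) had the reverse order in WT. The order in replicates 4 and 5 adds little, since these libraries lay between the others at most genes.

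**Figure D3:**
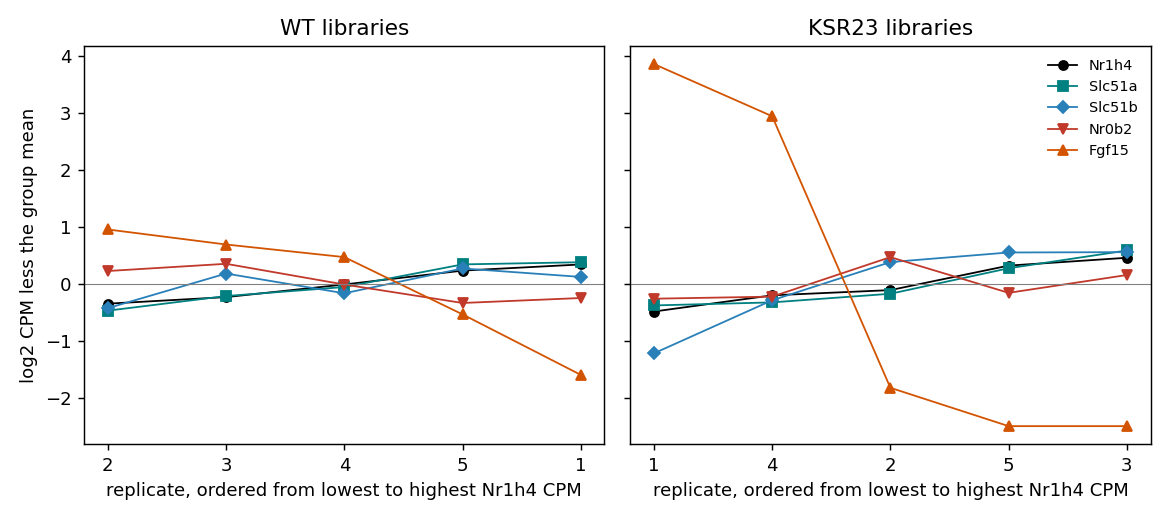
Log2 CPM (prior count of 2) less the group mean for Nr1h4, Slc51a, Slc51b, Nr0b2 and Fgf15, with the WT libraries on the left and the KSR23 libraries on the right, each ordered from the lowest to the highest Nr1h4 CPM. Nr1h4 and Slc51a rise together in both groups while Fgf15 is highest at the left end of each panel, and Nr0b2 follows neither.

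The genes most like each of the 7 across all 10 libraries were named by Pearson's r of log2 CPM less the group mean, among genes with a mean of at least 1 CPM. The points share library depth and the in-between replicates, so r is a description. Nearest to Nr1h4 were Fert2, Far2 and Pms2 (r = 0.990, 0.990 and 0.989), nearest to Slc51a were 0610031J06Rik and Vmp1 (0.992 each), and nearest to Slc51b were Mkks, Cycs and Cisd3 (0.989, 0.988 and 0.984). Nearest to Nr0b2 were Inpp1, Rmdn2 and Commd5 (0.953, 0.942 and 0.937), and none of these 3 was called between the groups. Nearest to Fgf15 were Ace, Mfsd12 and Abcb10 (0.988, 0.985 and 0.985), and nearest to Slc10a2 were Trf, Btc and 2010109I03Rik (0.942, 0.938 and 0.933). Far2, Btc and 2010109I03Rik were called between the groups (likelihood ratio adjusted p = 0.00423, 0.0109 and 1.26e-19). Fgf15 had 0 or 1 counts in KSR23 replicates 2, 3 and 5, and Slc10a2 0 to 2 counts in WT replicates 2 to 5. Their r thus rests in part on values near the floor. Fabp6 had too few counts to be compared.

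To place the 7 genes within the wider pathway, 45 other genes of bile acid synthesis, transport and sensing were read from the same fit. Of these, 43 passed the filter and 11 were called, 5 higher and 6 lower, where 18.5% of all genes were called. Their median log2 fold change was 0.20. The quasi-likelihood test called 10, against 15.4% of all genes. With replicates 1 to 3 the calls came to 3 by the likelihood ratio (Cyp8b1, Abcc4 and Fos), against 3.36% of all genes. They came to 0 by the edgeR quasi-likelihood test, against 0.812% of all genes, and 8 had an unadjusted p under 0.05 there.

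**Figure D4:**
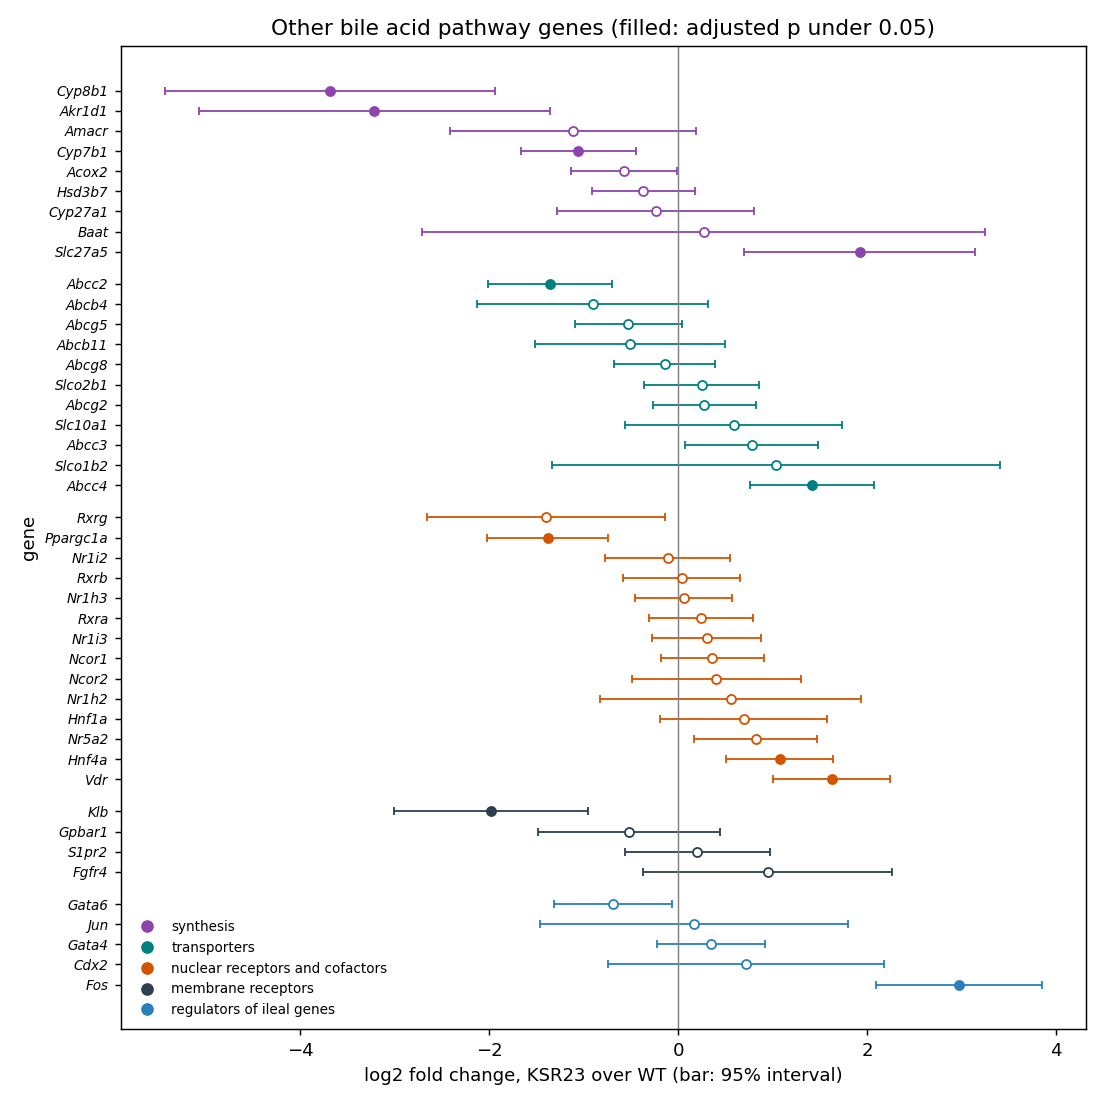
Log2 fold change of KSR23 over WT with its 95% interval for the 43 other bile acid pathway genes that passed the filter, coloured by role and filled where the likelihood ratio adjusted p is under 0.05. Filled points lie on both sides of 0, from Cyp8b1 at -3.69 to Fos at 2.97.

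Among 9 tested genes of synthesis, the likelihood ratio test called 3 lower and 1 higher, where it called 8.76% of all genes lower and 9.73% higher. The quasi-likelihood test called 3, all lower, against 6.91% of all genes called lower. Cyp8b1, the hydroxylase that directs synthesis to cholic acid, had 5 to 21 counts in WT and 0 to 5 counts in KSR23 (log2 fold change -3.69, SE 0.89, edgeR likelihood ratio adjusted p = 0.000244). With a library left out it ranged from -4.51 (without KSR23 replicate 4) to -3.39. Akr1d1, a steroid reductase of the same pathway, had 2 to 13 counts in WT and 0 to 5 in KSR23 (-3.21, SE 0.95, adjusted p = 0.00242). With a library left out it ranged from -4.55 (without KSR23 replicate 1) to -2.82. Its quasi-likelihood adjusted p was 0.0411, and in replicates 1 to 3 its likelihood ratio adjusted p was 0.305. Cyp7b1, an oxysterol hydroxylase, went from 4.57 ± 0.869 to 2.18 ± 0.537 CPM (SD, n = 5; -1.06). Slc27a5, which activates bile acids with coenzyme A, was higher (1.92, SE 0.62, adjusted p = 0.0187), but not by the quasi-likelihood test (adjusted p = 0.0550), nor by the likelihood ratio test without WT replicate 2, 3 or 5 or KSR23 replicate 5. Cyp7a1, the rate-limiting hepatic enzyme, had 0 counts in each library.

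Among 11 tested transporters, the exporters Abcc2 and Abcc4 were called in opposite directions, where the likelihood ratio test called 18.5% of all genes. Abcc2 (MRP2), which exports conjugates at the apical membrane, fell from a mean of 67.1 ± 16.0 to 26.2 ± 9.13 CPM (SD, n = 5; log2 fold change of -1.35, SE 0.34, edgeR likelihood ratio adjusted p = 0.00108). Abcc4 (MRP4), which exports bile acids and nucleotides, rose from 2.20 ± 0.676 to 5.88 ± 1.59 CPM (SD, n = 5; 1.42, SE 0.33, adjusted p = 0.000494). The groups did not overlap for either gene, which held for 14.4% of all genes. Abcc3, another basal exporter, was at 11.3 ± 2.28 and 19.3 ± 8.83 CPM (SD, n = 5; adjusted p = 0.124), and the sterol exporter genes Abcg5 and Abcg8 were not called.

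Among 14 nuclear receptors and cofactors, 3 were called, against 18.5% of all genes. Vdr, the vitamin D receptor, which also senses lithocholic acid, rose on average from 16.2 ± 4.52 to 49.95 ± 12.6 CPM (SD, n = 5; difference of 1.63 on the log2 scale, SE 0.31, edgeR likelihood ratio adjusted p = 1.38e-05). Hnf4a, a receptor that drives enterocyte and liver genes, rose from 163 ± 42.9 to 343 ± 82.4 CPM (SD, n = 5; 1.08, SE 0.29, adjusted p = 0.00281). Ppargc1a, a coactivator of FXR and other receptors, fell from 22.4 ± 5.94 to 8.60 ± 2.33 CPM (SD, n = 5; -1.38, SE 0.33, adjusted p = 0.000617). None of these was called in replicates 1 to 3, where the likelihood ratio test called 3.36% of all genes and the quasi-likelihood test 0.812%. Rxra, the usual FXR partner, differed by 0.24 on the log2 scale (SE 0.28, adjusted p = 0.620), and Nr5a2 (LRH-1), which activates Nr0b2 and is repressed by its product, 0.82 (SE 0.33, adjusted p = 0.0655).

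Of 4 membrane receptors, Klb was called lower, where the likelihood ratio test called 18.5% of all genes. Klb encodes beta-Klotho, the co-receptor through which FGF15 signals, and its level was 3.09 ± 1.51 CPM (WT) and 0.766 ± 0.592 CPM (KSR23; SD, n = 5; log2 difference -1.98, SE 0.52, edgeR likelihood ratio adjusted p = 0.00278), with overlap of the groups through KSR23 replicate 1 (1.78 CPM). Fgfr4, its partner receptor, had 1.83 ± 1.25 and 3.52 ± 1.92 CPM (SD, n = 5; adjusted p = 0.361), and the bile acid receptor Gpbar1 1.03 ± 0.253 and 0.707 ± 0.417 CPM (SD, n = 5; adjusted p = 0.512). Of 5 regulators of ileal bile acid genes, Fos, a subunit of AP-1, rose from 16.2 ± 5.94 to 127 ± 84.4 CPM (SD, n = 5; 2.97, SE 0.45, adjusted p = 3.91e-08), while Jun, Gata4, Gata6 and Cdx2 were not called.

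Markers of other cells were read from the same fit. By the likelihood ratio test, calls were made for 1 of 5 epithelial markers (Cdh1, higher), 2 of 5 enterocyte markers (Cdh17 higher, Fabp2 lower), 1 of 5 smooth muscle markers (Acta2, lower), 1 of 5 leukocyte markers (Cd52, lower) and 1 of 5 enteric neuron and glia markers (S100b, lower). All 3 tested acinar markers were called lower by this test, with a summed level of 0.110 to 7.92 CPM in WT and 0.0569 to 0.290 CPM in KSR23. Over all the cell type lists, hepatocyte included, the likelihood ratio test called 13 of 33 tested markers and the quasi-likelihood test 8, against 18.5% and 15.4% of all genes. The latter test lost Cdh1, Acta2, Alb, Cyp2e1 and the acinar markers Cpa1 and Cel, and gained Uchl1 (lower). In replicates 1 to 3 the likelihood ratio test called 3 markers (Serpina1a, S100b and Cel), against 3.36% of all genes. The quasi-likelihood test called 2 there (Serpina1a and S100b), against 0.812%. The summed enterocyte level, given above, overlapped between the groups. The part of cell composition in the Nr0b2 result was not tested.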

How the data were processed

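RNA sequencing of P5 jejunum gave 10 libraries, 5 WT and 5 KSR23, grouped and numbered by their titles. Per the labels, 100 pg of total RNA was primed with oligo-dT, amplified and tagmented without molecular identifiers, so exact intervals and floors cover counting error only. The deposited values were counts. The authors mapped single-end reads of 75 bases to mm10 with TopHat 2.1.0 and counted reads strictly inside gene models with HTSeq (0.6.1p1 in the submitters' processing notes). Reads with more than 1 alignment (8.62 to 17.1 M per library) and the counter's other summary lines entered no gene and no library total. Reads outside genes were 6.20% to 10.2% of those assigned, ambiguous or outside genes.

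Genes were kept if any library held 5 or more counts (a reading of the study's filter), and negative binomial models with TMM factors were fitted to the 10 libraries, with group as sole term, in edgeR 4.0.16 (R 4.3.3). The likelihood ratio test, as in the study, is the main test, and the quasi-likelihood F test stands beside it. Adjustment of p-values ran over all genes tested (Benjamini-Hochberg), with calls at 0.05. Log2 fold changes are KSR23 over WT. Intervals of fitted ratios are normal 95% intervals from the model's SE, which includes the spread between libraries. Alternatives were DESeq2 1.42.0, RLE factors, library totals alone, 2 other filters, each library left out, replicates 1 to 3 alone and a replicate block. The procedure was tested on simulated data. Exon lengths, positions and shared stretches come from GENCODE M21 (mm10), which holds 22750 of the 24062 symbols (94.5%), and the authors' gene models may differ in length.

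The 7 genes, the lists of other bile acid, regional and cell type genes, and the motifs were chosen with earlier results of these data known. Every one of the 7 is named, with each called gene of the bile acid list, the 3 genes most like each of the 7, and markers beside the results they touch, except that 1 gene like Slc51a and 1 distal marker are not reported here.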

Additional observations from a re-analysis of the deposited data

Results flagged for a closer look

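In 35 groups of 5 values (the 7 genes and the called bile acid pathway genes, in each group with more than 3 counts in some library), Dixon's criterion set 2 values apart from the other 4, and chance alone gives about 1.75. Neither belongs to the 7 genes. Vdr in KSR23 replicate 3 was at 4.86 log2 CPM (729 counts), against 5.69 in the next library, and still above each WT library. Ppargc1a in KSR23 replicate 1 was at 2.19 log2 CPM (317 counts), against 3.21 in the next library. The cause of either gap was not tested.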

How the results depend on the processing

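Nr0b2 was called lower under every alternative run, with a log2 fold change of -3.35 to -3.14 when each library was left out in turn. The number of the 7 genes called was 2, and it was 1 (Nr0b2) under the quasi-likelihood test, with library totals alone, with 5 or more counts in every library (where Slc10a2, Fabp6 and Fgf15 were not tested), in replicates 1 to 3 by either test, and with the replicate block by either test. It was 1 to 2 when a library was left out. Slc10a2 was then not called, at 2.77 by the quasi-likelihood test, 2.67 with library totals, and 2.58 and 2.55 in replicates 1 to 3 by the likelihood ratio and quasi-likelihood tests, and it ranged from 2.22 to 4.26 with a library left out. Slc51a turned to -0.059 with library totals and to -0.11 without KSR23 replicate 3, and ranged from -0.11 to 0.20 with a library left out. Slc51b turned to -0.071 with library totals, to -0.069 without KSR23 replicate 3 and to -0.067 without KSR23 replicate 5, and ranged from -0.07 to 0.31. Library totals moved the median of all genes by -0.07 on the log2 scale.

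Of the other bile acid genes 11 were called, 3 in replicates 1 to 3 and 0 there by the edgeR quasi-likelihood test, where 8 had an unadjusted p under 0.05. Of the regional markers 6 were called, 3 to 6 with a library left out, 1 in replicates 1 to 3 and 0 there by the edgeR quasi-likelihood test (4 unadjusted). Over all genes 3261 were called (18.5%), 579 (3.36%) in replicates 1 to 3 and 140 (0.812%) there by the quasi-likelihood test, the last chosen after seeing the data.

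Same-numbered libraries of the groups deviated from their group means together for numbers 2, 4 and 5 (r = 0.37, 0.28 and 0.41 over 12889 genes) and oppositely for 1 and 3 (-0.69 and -0.62), and only number 4 correlated best with its own number, so the numbers were not taken to pair the samples. With the replicate block the likelihood ratio test called 2202 genes, and Nr0b2 was at -3.26. Slc10a2 was at 3.48 (adjusted p = 0.0929), Fgf15 at -5.58 (0.0711) and Slc51b at -0.042. With the replicate block and the quasi-likelihood test, chosen after seeing the data, 1184 genes, 5 bile acid genes and 3 regional markers were called, with Slc10a2 at 3.20 and Slc51b at -0.042. The cause of these differences was not tested. Depth limits Slc10a2 and Fabp6, which had at most 42 and 10 counts.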
